A study of Mus musculus with 12 samples.

Results

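The genes of the presynaptic vesicle and release machinery are 35 named genes, out of 18820 genes that the arrays measured with a probe set of their own. They were chosen by name, with earlier results of these data known. Of them 17 encode proteins of the synaptic vesicle or bound to it, 9 encode SNARE proteins and their regulators, and 9 encode proteins of the active zone. A gene with several probe sets of its own was read from the one with the highest mean over the 12 animals. Of the 35 genes, 34 had such a probe set, and Doc2a, a calcium sensor of the vesicle, lay only on 2 probe sets that also carry another gene and has no value here.

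The samples were the medial prefrontal cortex of 6 PolyI:C and 6 control C57BL/6N offspring, with 1 array for each animal. PolyI:C offspring came from mothers given poly(I:C), a synthetic mimic of viral double-stranded RNA, at 5 mg/kg into a vein on gestation day 17, and control offspring came from mothers given saline by the same route on that day. The offspring of both groups went through cognitive and behavioural tests as adults and were killed at 12 weeks of age, so all tissue comes from tested animals. The labels used here name no litter, sex or array strip, and littermates cannot be told from unrelated animals, so that p-values reflect only the variation seen among these 12.

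Synaptic vesicles are filled with transmitter, held in clusters by synapsins and brought to the plasma membrane by Rab proteins. At the membrane they are docked and primed at the active zone, a protein lattice of RIM, ELKS, Munc13, liprin-alpha, piccolo and bassoon. Fusion is driven by the SNARE proteins synaptobrevin, syntaxin and SNAP-25, is triggered when calcium binds synaptotagmin, and is followed by disassembly of the SNARE complex by NSF and its SNAP adaptors. In the cortex most release sites belong to glutamatergic neurons, which load their vesicles through VGLUT1, and smaller numbers belong to interneurons and to axons from other regions.

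All 34 measured genes lay at or above the median level of the whole table (5.18 on the log2 scale), among them Slc17a7, the gene for VGLUT1, and so did all 6 measured pan-neuronal markers. Array medians lay between 5.15 and 5.21. Some markers of neighbouring tissue and glia differed between the groups. Of 8 myelin markers 6 fell in PolyI:C animals (limma adjusted p under 0.05), against 0.805% of all probe sets. Their mean per animal lay at -0.66 to -0.17 in PolyI:C animals and at -0.19 to 0.15 in control animals, on the log2 scale relative to the control mean. Of 6 astrocyte and 6 microglia markers 0 passed that threshold in either direction. The mean of 8 striatal markers lay at -0.37 to -0.14 in PolyI:C animals and at -0.33 to 0.44 in control animals, with the highest values in controls 5 and 6. These ranges overlapped, and 1 of the 8, Ppp1r1b, fell at that threshold. In bulk tissue fewer cells of a type and less RNA per cell cannot be told apart, and the part of these shifts in the differences below was not tested beyond the values given.

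The promoters of 3 active zone genes are shown because these genes had the lowest unadjusted p-values of the members. The sequences are the RefSeq windows of the table for GRCm38.p6, from 250 bases before to 50 bases after the annotated start, written 5′ to 3′ along the gene's strand. Pclo lies at chr5:14514668-14514967 on the plus strand, Erc1 at chr6:119848101-119848400 on the minus strand and Erc2 at chr14:27622157-27622456 on the plus strand. The capitals mark each GC box, GGGCGG or the same letters on the other strand, the motif bound by Sp-family factors.
Pclo: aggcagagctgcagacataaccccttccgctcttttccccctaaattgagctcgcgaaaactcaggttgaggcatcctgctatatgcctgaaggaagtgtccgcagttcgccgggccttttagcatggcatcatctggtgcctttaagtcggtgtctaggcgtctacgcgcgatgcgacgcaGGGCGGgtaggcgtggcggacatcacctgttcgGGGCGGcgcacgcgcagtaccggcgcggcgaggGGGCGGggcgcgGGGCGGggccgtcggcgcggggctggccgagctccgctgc
Erc1: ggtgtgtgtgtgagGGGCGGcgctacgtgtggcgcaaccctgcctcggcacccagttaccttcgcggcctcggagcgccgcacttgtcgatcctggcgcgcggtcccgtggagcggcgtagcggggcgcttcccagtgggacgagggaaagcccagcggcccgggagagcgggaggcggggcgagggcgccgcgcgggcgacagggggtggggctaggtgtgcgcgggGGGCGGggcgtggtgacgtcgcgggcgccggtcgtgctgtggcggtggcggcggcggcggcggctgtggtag
Erc2: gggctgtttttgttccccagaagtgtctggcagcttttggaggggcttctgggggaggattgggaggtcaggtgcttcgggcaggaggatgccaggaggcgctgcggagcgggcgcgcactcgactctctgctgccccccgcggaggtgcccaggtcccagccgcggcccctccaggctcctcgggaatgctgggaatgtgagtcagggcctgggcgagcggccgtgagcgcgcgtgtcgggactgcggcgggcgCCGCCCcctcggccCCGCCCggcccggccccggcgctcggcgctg
Pclo has 4 such matches, and Erc1 and Erc2 have 2 each. A promoter window was in the table for 27 of the 35 genes; Syn3, Syt4, Syngr3, Doc2a, Doc2b, Snap25, Vamp2 and Rims2 had none. Of the 27, 22 held a GC box on either strand, against 38.2% of all 27025 genes in the table, and the 5 without one were Syn1, Cplx2, Nsf, Napb and Bsn. The TATA box letters TATAAA were found on either strand in 1 of the 27, Sv2b, against 15.7% of all genes. The cAMP response element TGACGTCA was found in 2 of the 27, Syn1 and Napa, against 2.03% of all genes. The percentages of all genes cover every gene of the promoter table, of any type or level, and are not matched to the members. The 3 windows shown held 0 matches to the TATA box or the cAMP response element. A match is a description of the letters and not of a bound factor.

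None of the 34 genes changed between PolyI:C and control animals by the adjusted test. With limma and Benjamini-Hochberg adjustment over 23099 probe sets, 0 members were higher and 0 were lower at an adjusted p of 0.05, where 2.83% of all probe sets passed in either direction, 2.02% higher and 0.805% lower in PolyI:C animals (467 and 186 probe sets; quantile normalization gave 239 and 285, median centring 298 and 232). The smallest adjusted p of a member was 0.068, for Erc2. At an unadjusted p under 0.05 the count was 8 higher (23.5% of the 34) and 0 lower, against 11.7% of all probe sets higher and 7.33% lower. After quantile normalization this became 3 higher and 3 lower (Rab3a, Syngr1 and Doc2b), and after median centring 5 higher and 1 lower (Doc2b). Since every member lay at or above the median level, the closer background is the 13783 probe sets at or above it, of which 17.5% were higher at that threshold. The 8 were Syn1 among the vesicle genes, Vamp1 and Napb among the SNARE genes, and Pclo, Rims2, Erc1, Erc2 and Ppfia2 of the active zone.

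The differences were small. Group means were higher in PolyI:C animals for 22 of the 34 genes (64.7%), against 52% of all probe sets and 63% of those at or above the median level, so this share is near its background. After quantile normalization it was 16 of 34, and after median centring 20 of 34. The median difference of the 34 genes, PolyI:C minus control, was 0.020 on the log2 scale, against 0.0030 over all probe sets and 0.022 over those at or above the median level. It turned to -0.0025 after quantile normalization and was 0.0093 after median centring. For 32 of the 34 genes the whole 95% interval of the difference lay within 0.2 of 0 on the log2 scale, that is within 1.15-fold either way. Vamp1 and Doc2b were the exceptions. The arrays thus bounded most of these genes closely: the standard error (SE) of a difference lay between 0.026 and 0.091.

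**Figure D1:**
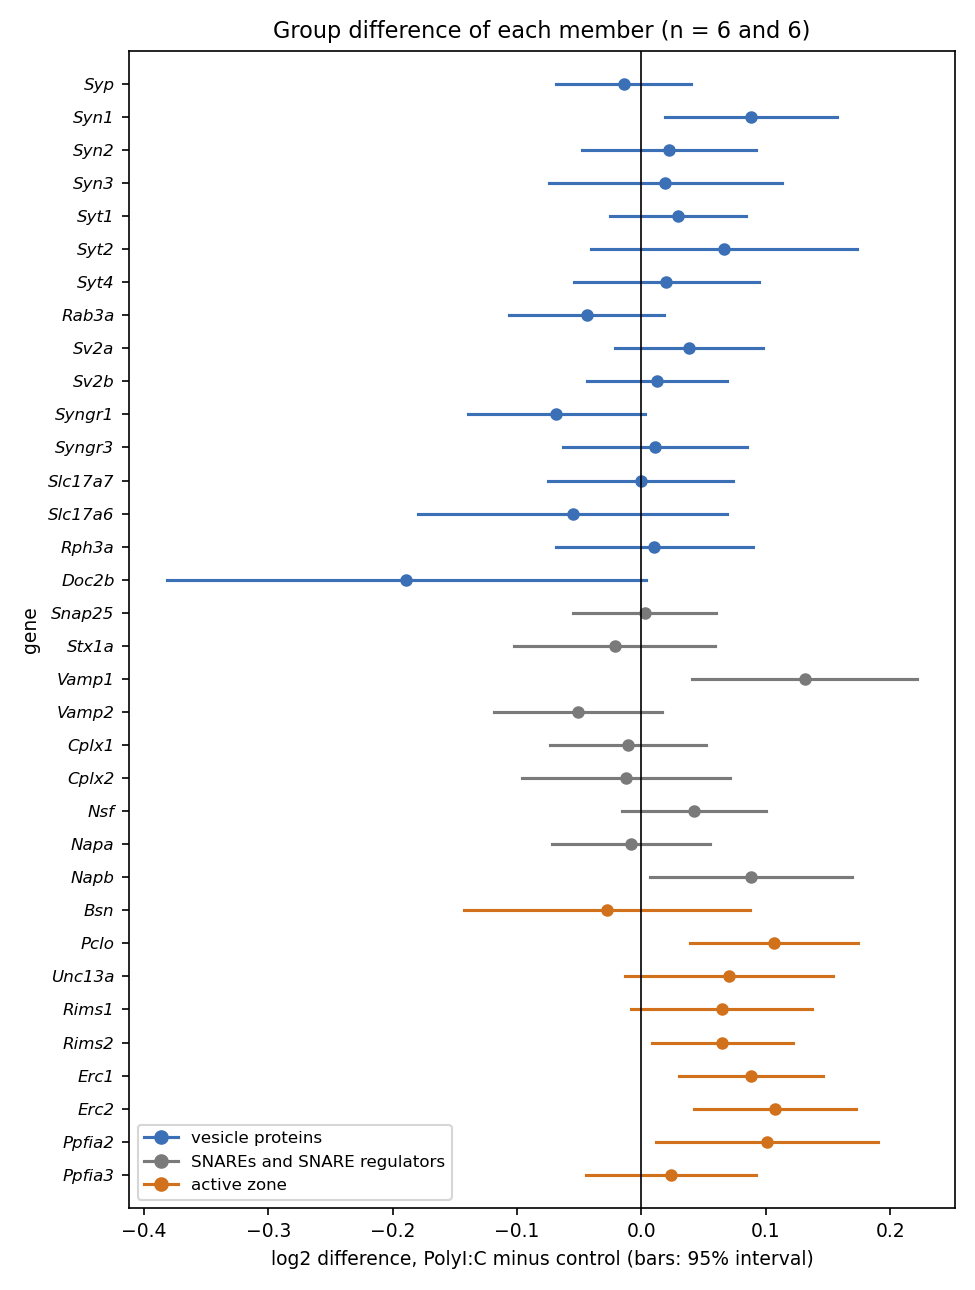
Difference in log2 level between group means, PolyI:C minus control, for each of the 34 genes (points) with its 95% interval from limma (bars), 6 PolyI:C against 6 control animals, coloured by role. Active zone genes have 8 of 9 points above 0 (7 after quantile normalization), the other roles lie on both sides of 0, and the interval of Doc2b is the widest.

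Of the 3 roles the active zone had the higher differences. Its 9 genes had a median difference of 0.070 on the log2 scale, against 0.012 for the 16 measured vesicle genes and -0.0087 for the 9 SNARE genes. After quantile normalization these medians were 0.053, -0.0044 and -0.025, and after median centring 0.060, 0.0013 and -0.019. Group means were higher in PolyI:C animals for 8 of the 9 active zone genes (7 after quantile normalization, which turned Ppfia3), 10 of the 16 vesicle genes (6 after quantile normalization) and 4 of the 9 SNARE genes (3 after it). At an unadjusted p under 0.05 the counts of higher genes were 5 of 9 (55.6%), 1 of 16 (6.25%) and 2 of 9 (22.2%). Of all probe sets 11.7% were higher at that threshold, and 17.5% of those at or above the median level. The active zone count was 3 without PolyI:C 1, 3 after median centring and 2 after quantile normalization. For 3 members, all of the active zone, every PolyI:C animal lay above every control animal, which held for 1.73% of all probe sets. For 0 members did every PolyI:C animal lie below every control animal, against 0.636% of all probe sets. Both shares cover probe sets of any level, and were not taken for those at or above the median level. The separation of the 3 was not rechecked after quantile normalization or median centring. Erc1 is among the 5 and among the 3 by its probe set of highest mean, and its other probe sets gave differences of -0.089 and -0.108. These counts describe a chosen list, and whether the roles differ from each other was not tested.

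**Figure D2:**
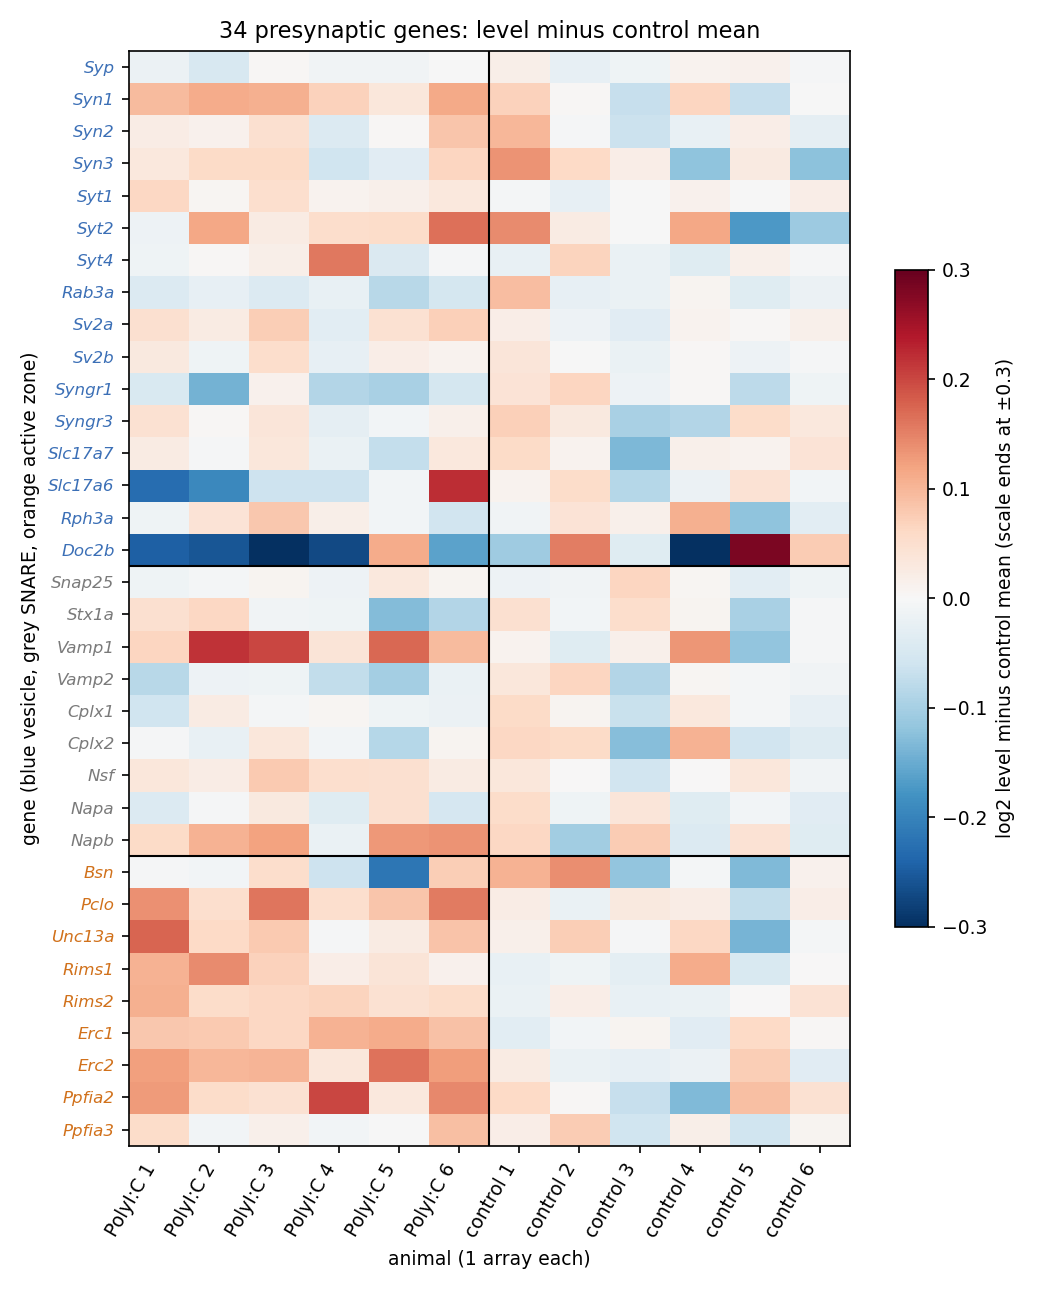
Level of each of the 34 genes (rows, grouped by role) in each animal (columns, PolyI:C left of control), as the log2 difference from the control mean, with the colour scale ending at 0.3 in either direction. The active zone rows are red in most PolyI:C columns, while the vesicle and SNARE rows hold both colours. The widest spread is that of Doc2b in control animals and that of Slc17a6 in PolyI:C animals.

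Averaged over its 9 genes in each animal, the active zone lay at 0.031 to 0.10 in PolyI:C animals and at -0.032 to 0.028 in control animals, relative to the control mean on the log2 scale. The lowest PolyI:C animal, number 5, thus lay just above the highest control, number 2. Erc1 entered this mean by probe set 10547410, and its other probe sets had differences of the opposite sign. Whether this narrow separation holds with those probe sets, or after quantile normalization or median centring, was not tested. The vesicle mean lay at -0.022 to 0.030 in PolyI:C animals and at -0.036 to 0.040 in control animals, and the SNARE mean at -0.0079 to 0.049 in PolyI:C animals and at -0.027 to 0.039 in control animals. Both of these ranges overlapped widely. The mean of 5 upper-layer markers, like that of the active zone, was higher in PolyI:C animals as a group. It lay at 0.088 to 0.237 in PolyI:C animals and at -0.051 to 0.035 in control animals, without overlap. None of the 5 passed the adjusted test (lowest adjusted p = 0.062, Calb1). Within the PolyI:C animals the highest upper-layer mean and the highest active zone mean belonged to different animals, and number 5 had the lowest of each. The mean of the 6 pan-neuronal markers lay at 0.027 to 0.119 in PolyI:C animals and at -0.038 to 0.035 in control animals. The part of either in the active zone values was not tested.

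The ELKS proteins, encoded by Erc1 and Erc2, are scaffolds that bind RIM and liprin-alpha. The log2 level of Erc2 had a low of 8.85, a median of 8.93 and a high of 8.98 in PolyI:C animals, against 8.78, 8.80 and 8.89 in control animals. In 5 of 6 PolyI:C animals Erc2 lay above the highest control, and in number 4 it lay within the control range. The difference of means was 0.107 ± 0.031 (SE, n = 6 and 6), or 1.08-fold (limma adjusted p = 0.068). Erc1 by its probe set of highest mean, 10547410, had a low of 7.14, a median of 7.16 and a high of 7.19 in PolyI:C animals, against 7.04, 7.07 and 7.13 in control animals. The groups did not overlap, by the narrow gap between PolyI:C 3 and control 5. The difference was 0.088 ± 0.027, or 1.06-fold (limma adjusted p = 0.087).

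The 3 probe sets of Erc1 disagreed. Probe set 10547404 averaged 6.20 ± 0.08 in PolyI:C animals and 6.29 ± 0.06 in control animals (SD, n = 6 each), a difference of -0.089 (limma adjusted p = 0.24). Probe set 10547408 averaged 6.47 ± 0.06 in PolyI:C animals and 6.58 ± 0.06 in control animals, a difference of -0.108 (limma adjusted p = 0.11). Both have the opposite sign to 10547410, and over the mean of the 3 probe sets the Erc1 difference was -0.036. The direction of Erc1 therefore depends on the probe set, and which transcripts each one reads was not analysed here.

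**Figure D3:**
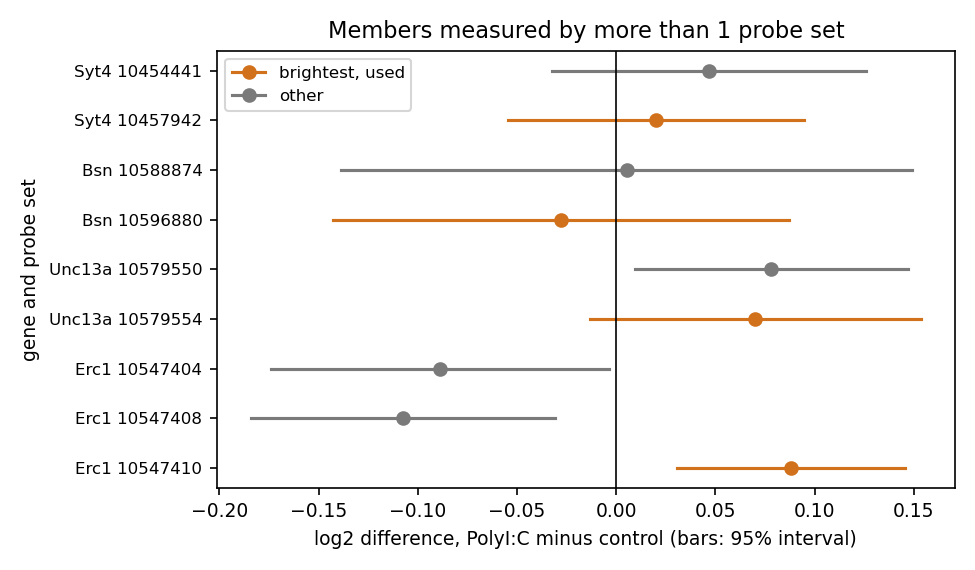
Difference in log2 level, PolyI:C minus control, with its 95% interval, for each probe set of the 4 genes that have more than 1 of their own, with the one used in orange and the others in grey. The 3 probe sets of Erc1 fall on both sides of 0, and the 2 of Unc13a lie together at 0.078 and 0.070.

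Piccolo, encoded by Pclo, is a giant scaffold protein of the active zone. Its log2 level had a low of 9.40, a median of 9.46 and a high of 9.51 in PolyI:C animals, against 9.28, 9.37 and 9.38 in control animals. All 6 PolyI:C animals lay above all 6 controls, and 3 of the PolyI:C animals (numbers 2, 4 and 5) sat closer to the controls than the others. The difference was 0.106 ± 0.032, or 1.08-fold (limma adjusted p = 0.079). Bassoon, encoded by Bsn and a close relative of piccolo, was the active zone gene with a lower mean in PolyI:C animals: its difference was -0.028, with a 95% interval from -0.143 to 0.087 (adjusted p = 0.82), and its second probe set gave 0.0052.

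The RIM proteins tether vesicles and calcium channels at the release site. Rims2 averaged 8.24 ± 0.02 in PolyI:C animals and 8.17 ± 0.03 in control animals (SD, n = 6 each), a difference of 0.065 without overlap between the groups (limma adjusted p = 0.19). The gap was narrow: the lowest PolyI:C animal lay at 8.2151 and the highest control at 8.2129. Over the 22 alternatives the Rims2 difference ran from 0.029 to 0.076, and its limma adjusted p from 0.14 to 0.60. Rims1 also differed by 0.065, and its control 4 lay above 5 of the 6 PolyI:C animals (adjusted p = 0.32).

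Munc13-1, encoded by Unc13a, primes docked vesicles for fusion. The log2 level of Unc13a had a low of 9.39, a median of 9.46 and a high of 9.57 in PolyI:C animals, against 9.26, 9.40 and 9.47 in control animals. The groups overlapped, with 3 PolyI:C animals above the highest control (difference 0.070 ± 0.039, limma adjusted p = 0.35). On its second probe set, 10579550, the difference was 0.078 and the groups did not overlap (adjusted p = 0.20). The liprins-alpha, which place active zone proteins along the axon, gave 0.101 for Ppfia2 (adjusted p = 0.20) and 0.024 for Ppfia3 (adjusted p = 0.73). Every PolyI:C animal lay above the control mean for Ppfia2, and 3 of 6 did for Ppfia3.

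**Figure D4:**
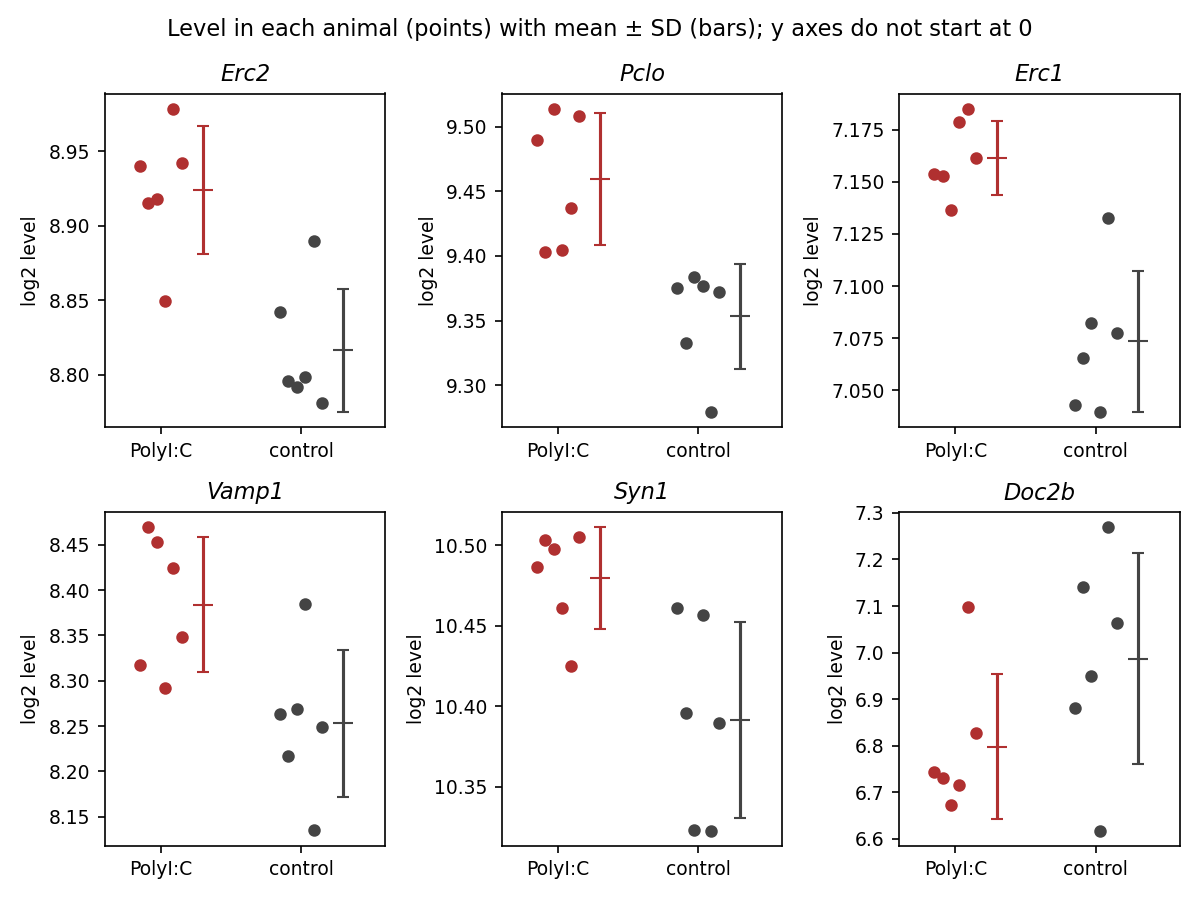
Log2 level of 6 genes in each animal (points, PolyI:C left in red, control right in grey) with the group mean and SD (bars, n = 6 each); each axis has its own range and does not start at 0. Pclo and Erc1 show separate groups, Erc2, Vamp1 and Syn1 show higher PolyI:C means with overlap, and Doc2b shows 1 PolyI:C animal (number 5) far above the other 5 and 1 control (number 4) far below the others.

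Among the SNARE genes, both synaptobrevins were listed, and their differences had opposite signs. Vamp1, the synaptobrevin used mainly at fast-firing synapses and in the hindbrain and spinal cord, had a low of 8.29, a median of 8.39 and a high of 8.47 in PolyI:C animals, against 8.13, 8.26 and 8.38 in control animals. The control range reached into the PolyI:C range through 1 animal, control 4. The difference was 0.131 ± 0.043, with a 95% interval from 0.041 to 0.222 and a fold of 1.10 (limma adjusted p = 0.10), and without control 4 it was 0.157 (adjusted p = 0.049; 0.049 to 0.27 over the 22 alternatives). Vamp2, the main synaptobrevin of forebrain vesicles, had a low of 10.85, a median of 10.90 and a high of 10.94 in PolyI:C animals, against 10.86, 10.95 and 11.01 in control animals. All 6 PolyI:C animals lay below the control mean, and the ranges overlapped through 1 animal, control 3, which was below 5 of them (difference -0.051 ± 0.032, adjusted p = 0.40). The mean of 6 GABA neuron markers, parvalbumin among them, lay at -0.044 to 0.057 in PolyI:C animals and at -0.057 to 0.079 in control animals. This mean joins markers of both directions, 3 higher and 3 lower in PolyI:C animals. They ran from 0.075 for Pvalb (limma adjusted p = 0.52) to -0.093 for Sst (limma adjusted p = 0.15).

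The plasma membrane SNAREs did not pass and were closely bounded. Snap25 averaged 11.59 ± 0.02 in PolyI:C animals and 11.59 ± 0.03 in control animals (SD, n = 6 each), and its lowest, median and highest values were 11.57, 11.59 and 11.62 in PolyI:C animals and 11.56, 11.58 and 11.65 in control animals. The difference was 0.0025, with a 95% interval from -0.055 to 0.060. Stx1a, the gene for syntaxin-1A, differed by -0.022 (interval from -0.103 to 0.059), and the complexins, which clamp and promote fusion, by -0.011 for Cplx1 and -0.012 for Cplx2. In each of these genes PolyI:C animals lay on both sides of the control mean.

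SNARE complexes are taken apart by the ATPase NSF with its adaptors alpha-SNAP (Napa) and beta-SNAP (Napb), an adaptor found mainly in the brain. Napb had a low of 10.39, a median of 10.52 and a high of 10.54 in PolyI:C animals, against 10.30, 10.41 and 10.48 in control animals. In 4 of 6 PolyI:C animals it lay above the highest control (difference 0.088 ± 0.038, limma adjusted p = 0.22). Nsf differed by 0.043, with all 6 PolyI:C animals above the control mean (adjusted p = 0.42), and Napa by -0.0087 (adjusted p = 0.91).

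Of the vesicle genes, Syn1, whose protein ties vesicles to each other and to actin, had the lowest p. Its log2 level had a low of 10.42, a median of 10.49 and a high of 10.51 in PolyI:C animals, against 10.32, 10.39 and 10.46 in control animals. In 4 of 6 PolyI:C animals it lay above the highest control (difference 0.088 ± 0.033, or 1.06-fold, limma adjusted p = 0.15). The other synapsin genes gave smaller differences, 0.022 for Syn2 and 0.019 for Syn3, and neither passed (adjusted p = 0.77 and 0.85).

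Doc2b, a calcium sensor linked to spontaneous release, had the lowest group difference of all members. Its log2 level had a low of 6.67, a median of 6.74 and a high of 7.10 in PolyI:C animals, against 6.62, 7.01 and 7.27 in control animals. Control 4 had the lowest value of all 12 animals and PolyI:C 5 lay among the upper controls, so the PolyI:C range lay wholly within the control range. The difference was -0.189 ± 0.091, with a 95% interval from -0.382 to 0.0036 (limma adjusted p = 0.27). Control 5, the animal with the highest striatal marker mean, also had the highest Doc2b level, and PolyI:C 5 had the highest of each within the PolyI:C animals. The lower ends differed: control 1 had the lowest striatal mean of the controls (-0.328), and control 4 had their lowest Doc2b level. Without controls 5 and 6 the Doc2b difference was -0.099. The part of striatal tissue in the Doc2b value was not tested.

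Syngr1, which encodes the vesicle membrane protein synaptogyrin-1, had a low of 10.07, a median of 10.14 and a high of 10.23 in PolyI:C animals, against 10.14, 10.21 and 10.28 in control animals. In 3 of 6 PolyI:C animals it lay below the lowest control, and PolyI:C 3 lay above the control mean (difference -0.069 ± 0.034, limma adjusted p = 0.28). Its relative Syngr3 differed by 0.011. Rab3a, the GTPase that guides vesicles to RIM, lay below the control mean in all 6 PolyI:C animals (difference -0.044, adjusted p = 0.43).

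Syt1, the calcium sensor of fast release, had a low of 11.18, a median of 11.19 and a high of 11.23 in PolyI:C animals, against 11.15, 11.17 and 11.19 in control animals. All 6 PolyI:C animals lay above the control mean and 3 above the highest control, yet the difference was 0.030 (95% interval from -0.025 to 0.084, limma adjusted p = 0.56). Syt2, the sensor of fast inhibitory and hindbrain synapses, differed by 0.066 (adjusted p = 0.50), and Syt4, which lacks normal calcium binding, by 0.020 (adjusted p = 0.80).

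None of the remaining vesicle genes passed the adjusted test. Syp, the gene for synaptophysin, differed by -0.014 (95% interval from -0.068 to 0.040), and Slc17a7 by -0.00078 (interval from -0.075 to 0.074). Slc17a6, the gene for VGLUT2, used by thalamic axons and by few cortical cells, differed by -0.055 (interval from -0.180 to 0.069). This gene was less closely bounded, and its level ran from 5.38 to 5.83 in PolyI:C animals and from 5.53 to 5.67 in control animals. The SV2 proteins, which act in vesicle priming and bind botulinum toxin, gave 0.038 for Sv2a and 0.012 for Sv2b, and the Rab3 effector gene Rph3a gave 0.010. The lowest adjusted p of these 6 genes was 0.48, for Sv2a.

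A wider list of 117 other presynaptic genes, covering further SNAREs, synaptotagmins, Rab3 partners, transporters, the vesicle proton pump and endocytosis, held 110 with a probe set of their own. Of these 2 were higher in PolyI:C animals by the adjusted test and 0 were lower. That share of 1.82% stands against 2.02% of all probe sets. Group means were higher for 73 (66.4%) and lower for 37, against 52% higher over all probe sets and 63% at or above the median level. The median difference was 0.018 on the log2 scale, -0.0042 after quantile normalization and 0.0073 after median centring. At an unadjusted p under 0.05 the counts were 14 higher and 6 lower, 12.7% and 5.45% of the 110, against 11.7% and 7.33% of all probe sets and, for higher, 17.5% of those at or above the median level.

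Unc13b, which encodes the priming factor Munc13-2, had a low of 6.73, a median of 6.79 and a high of 7.01 in PolyI:C animals, against 6.51, 6.58 and 6.67 in control animals. The groups did not overlap, and Unc13b rose by 0.234 ± 0.047, or 1.18-fold (limma adjusted p = 0.017). Stx3, the syntaxin of ribbon synapses and of postsynaptic receptor delivery, had a low of 6.46, a median of 6.54 and a high of 6.63 in PolyI:C animals, against 6.33, 6.39 and 6.45 in control animals. The groups again did not overlap, and Stx3 rose by 0.155, or 1.11-fold (adjusted p = 0.039). Such a separation, higher in PolyI:C animals, held for 2 of the 110 genes (1.82%), against 1.73% of all probe sets. The Unc13b call was kept under all 22 alternatives (adjusted p from 0.012 to 0.045) and the Stx3 call under 11 of them (0.029 to 0.091). Unc13b, a paralog of Unc13a, thus differed by 0.234, beside 0.070 for Unc13a, and the difference between the 2 genes was not tested.

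Among the other presynaptic genes near the threshold, all chosen after their values were seen, Cadps, the dense-core vesicle priming factor, differed by 0.118 (limma adjusted p = 0.060), Stx2 by 0.195 (0.061) and Stxbp2, the gene for Munc18-2, by 0.256 (0.068). The RIM-binding protein gene Rimbp2 differed by 0.121 (0.088). On the lower side, the complexin gene Cplx3, which in cortex marks subplate-derived deep neurons, differed by -0.214 (0.068). Slc18a3, the vesicular acetylcholine transporter gene, differed by -0.114 (0.075) without overlap between the groups, which held for 0.636% of all probe sets. Its means, 4.22 in PolyI:C and 4.33 in control animals, lay below the median level of the whole table, 5.18. The mean of 6 deep-layer markers lay at -0.318 to 0.0014 in PolyI:C animals and at -0.062 to 0.072 in control animals, and 1 of the 6, Bcl11b, fell (-0.159, adjusted p = 0.040). The part of that shift in the Cplx3 value was not tested.

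The members differ widely in gene length, which the choice of members did not use. By the RefSeq annotation of GRCm38.p6, the 8 that span over 200 kb were Erc1, Pclo, Syn3, Ppfia2, Rims2, Syt1, Rims1 and Erc2, of which 6 belong to the active zone. All 8, Erc1 by the probe set used here, had a higher mean in PolyI:C animals (6 after quantile normalization, which turned Syn3 and Syt1), with a median difference of 0.076 on the log2 scale, and of the other 26 members 14 had a higher mean, with a median of 0.0064. Across the 34 genes, which share the same 12 arrays and are not independent replicates, the difference and the span had a Spearman rho of 0.47, and of 0.31 over the 25 outside the active zone. By rho the same relation was weaker over all 17894 protein-coding genes (0.20) and over the 11087 at or above the median level (0.19). The Pearson r with the log of the span was 0.42 over the 34 genes and 0.17 over the 25. It was 0.18 over the 17894 genes and 0.16 over the 11087, so the 25 lay near that background by this measure. Of those 11087 the 789 that span over 200 kb had a median difference of 0.037, and 71.6% had a higher mean in PolyI:C animals. The role and the length of the active zone genes cannot be told apart here.

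**Figure D5:**
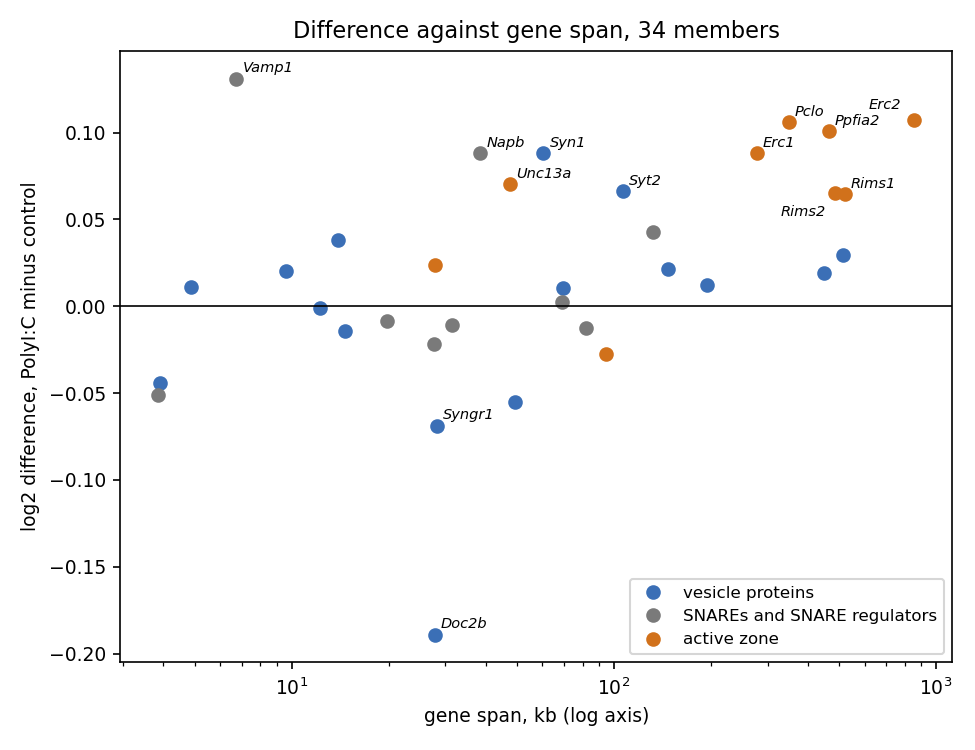
Difference in log2 level, PolyI:C minus control (y axis), against the length of the gene from start to end in the RefSeq annotation (x axis, kb, log scale) for the 34 genes, coloured by role. The 8 genes over 200 kb all lie above 0 (6 after quantile normalization) and 6 of them are active zone genes, while shorter genes lie on both sides of 0.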

How the data were processed

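RNA from the medial prefrontal cortex of 6 PolyI:C and 6 control animals was hybridised to Mouse Gene 1.1 ST arrays; the labels' protocols name both a 3' IVT and a whole-transcript kit. The deposited values are log2 levels per probe set, judged from their scale, and the submitters' processing notes name RMA and Partek 6.6 without order. Their genome build is not stated: not given in the sources used here. RMA makes array distributions alike and compresses differences of dim probe sets. Of 35556 probe sets, 21218 carried 1 gene in the platform annotation, 1881 several and 12457 none, and 21185 of the single-gene ones were matched to RefSeq GRCm38.p6. The 23099 with a gene entered a two-sided limma fit (version 3.58.1 under R 4.3.3; lmFit, then eBayes) of PolyI:C minus control that had no covariate, and its p-values were adjusted by Benjamini-Hochberg over them all. The fit was tested on simulated data. Precision is limited by the 12 arrays.

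The members, lists and tests were chosen with earlier results of these data known. The low, median and high of each group are given for the 3 members of lowest p in each role. The same is given for the member of highest mean in each role and for called presynaptic genes. Other members are given mainly by their differences. Figures were drawn with matplotlib 3.10.9. Alternatives were the replicate number as a block, quantile normalization, median centring, filters at the 25th and 50th percentile of level, all rows, eBayes with trend and robust, array weights, the mean of all probe sets of a gene, controls 5 and 6 left out and each animal left out.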

Additional observations from a re-analysis of the deposited data

Results flagged for a closer look

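Single animals stood apart from the other 5 of their group in 7 of the 76 groups tested by Dixon's criterion, which flags about 1 in 20 groups by chance; none was weighed further. Among PolyI:C animals, Doc2b lay at 7.10 in number 5 (others 6.67 to 6.83), Syt4 at 9.44 in number 4 (others 9.24 to 9.30) and Rims2 at 8.28 in number 1 (others 8.22 to 8.24). Among controls, Slc17a7 lay at 10.68 in number 3 (others 10.82 to 10.87) and Unc13a at 9.26 in number 5 (others 9.39 to 9.47), both below the rest. Rims1 lay at 8.86 in control 4 (others 8.70 to 8.75) and Rab3a at 10.05 in control 1 (others 9.93 to 9.97), both above the rest.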

How the results depend on the processing

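Under 22 alternatives 19 of the 34 members kept their direction, and 3 ever passed the adjusted test of limma, all higher in PolyI:C animals. At or above the 50th percentile of level 1 member passed (Erc2, adjusted p = 0.048), and with trend and robust 2 did (Pclo 0.046, Erc2 0.046). Leaving out 1 animal gave 0 to 1 members higher: Vamp1 passed without control 4 (0.049) and Erc2 without control 5 (0.045). Over all alternatives adjusted p ran from 0.045 to 0.16 for Erc2, 0.046 to 0.17 for Pclo and 0.049 to 0.27 for Vamp1. The active zone count at an unadjusted p under 0.05 was 5, and 2 after quantile normalization, 3 after median centring and 3 without PolyI:C 1. For all members that count was 8, and 3 after quantile normalization and 5 after median centring. Lower members at that threshold numbered 0, and 3 after quantile normalization and 1 each after median centring, with the replicate block, with array weights (Doc2b in these), with trend and robust and without controls 5 and 6 (Syngr1 in both); with 1 animal left out it was 0 to 1.

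Quantile normalization moved the median difference of the members to -0.0025 and that of the other presynaptic genes to -0.0042; the active zone median stayed at 0.053. It turned Syn3 to -0.011, Syt1 to -0.0034, Syngr3 to -0.0066, Rph3a to -0.0043, Snap25 to -0.0016 and Ppfia3 to -0.0056. Median centring turned Rph3a to -1.7e-05 and Snap25 to -0.0078. Without controls 5 and 6, Syn3 was -0.0043, Syt2 -0.0037, Slc17a7 0.012, Rph3a -0.028 and Snap25 -0.0087. With the mean of all probe sets Erc1 was -0.036. Leaving out each animal gave differences on both sides of 0 for Bsn (-0.054 to 0.010), Cplx1 (-0.024 to 0.00085), Cplx2 (-0.038 to 0.0084), Napa (-0.020 to 0.0023), Rph3a (-0.014 to 0.032), Slc17a7 (-0.028 to 0.013), Snap25 (-0.0038 to 0.015), Stx1a (-0.041 to 1.9e-05), Syn3 (-0.0052 to 0.046), Syngr3 (-0.0085 to 0.025) and Syt4 (-0.0074 to 0.034). The cause of these turns was not tested.

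Of the other presynaptic genes, 1 was higher after quantile normalization, after median centring or over all rows, where Unc13b passed and Stx3 did not, and 4 at or above the 50th percentile, adding Cadps and Stx2. The count was 1 to 4 with 1 animal left out, and Stx3 was lost without PolyI:C 1, 3, 5 or 6 or control 1, 2 or 3 (highest adjusted p = 0.091). The count of lower genes was 1 after median centring and without controls 5 and 6 (Cplx3 in both), and 0 to 1 with 1 animal left out (Cplx3 without control 5, Syt6 without PolyI:C 5).

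Over all probe sets 653 passed, 414 over all rows, and 230 to 818 with 1 animal left out, with fewer than 400 without PolyI:C 1, 3, 4 or 6 or control 1, 2 or 3. The replicate numbers did not pair the samples (correlations of deviations from -0.092 to 0.110), and with the replicate block 536 probe sets, 0 members and 2 other presynaptic genes (Unc13b and Stx2) passed. With 6 arrays a group, the SE of a member's difference was 0.026 to 0.091, which limits what could be detected.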
